A study of Rattus norvegicus with 15 samples.

Results

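The genes described here are 10 genes of Wnt signalling in cultured rat cells, named brain microvascular endothelial cells (BMECs) by the study, after x-ray exposure. They are 6 Frizzled receptors (Fzd1, Fzd2, Fzd4, Fzd6, Fzd7 and Fzd8), the co-receptors Lrp6 and Ptk7, and the intracellular genes Ctnnb1 and Axin2. They were chosen by gene name, and the values of all rows that carried a member's name, or that lay without a name in a locus holding that name only, were added per gene. This gave 25 transcript rows for 10 of the 37367 genes of the table.

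Messenger RNA was sequenced from primary cultures, named BMECs by the study, of littermate Sprague Dawley rats of both sexes, aged 2 to 3 weeks. The 15 libraries form 5 groups of 3 biological replicates. The control group received every handling step except the x-rays and is labelled as cultured for 12 h. The other 4 groups were exposed at 60% confluence, at a dose rate of 2.5 Gy per min, to 5 Gy or 20 Gy and collected 12 h or 24 h later. All libraries come from cells grown in the same endothelial medium. A 24 h unexposed culture was not analysed here, so at 24 h exposure and longer culture cannot be told apart. The sources used here do not say whether each replicate was a separate preparation of cells, so the p-values measure the spread between these libraries only.

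Wnt proteins are secreted lipid-modified ligands that bind Frizzled receptors, which span the cell membrane, together with the co-receptors LRP5 or LRP6. In the canonical branch this stops a destruction complex built on APC and AXIN from marking beta-catenin (Ctnnb1) for degradation, and beta-catenin then works with TCF/LEF factors at target genes such as Axin2. Other branches use ROR, RYK and PTK7 and act on cell polarity and movement. In the brain, Wnt signalling in endothelial cells is known for its role in vessel growth and in the blood-brain barrier.

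Expression was given as FPKM, the fragments per kilobase of transcript scaled to the number of mapped reads, which is a level per length. Depth was read from the steps between low FPKM values and came to 5.44 to 7.49 gigabases of aligned sequence per library. Tests were made with limma on log2(FPKM + 1) over 17895 genes whose mean FPKM reached 0.5, and a gene was called when its Benjamini-Hochberg adjusted p was under 0.05 and its change at least 1.5-fold. The defining endothelial markers were nearly absent from the libraries, so BMEC is used here only as the name the study gives. Tie1 and Emcn were listed at 0 in all 15 libraries and Cldn5 in 13, and Cdh5 reached an FPKM of at most 0.275. Of the 16 markers on the endothelial list, 14 had values, while Pecam1 and Abcb1a had none. Of the 14, 4 (Kdr, Flt1, Egfl7 and Slc2a1) had a mean FPKM of at least 0.5, with Slc2a1 at 12.45 to 25.73. The summed FPKM of this list was 26.5 to 33.2 in the control libraries, 17.7 to 24.7 at 12 h and 22.7 to 29.1 at 24 h. The summed FPKM of 10 fibroblast markers was 2296 to 2598 in the control libraries, 1801 to 2235 in the 12 h libraries and 817 to 981 in the 24 h libraries. That of 10 mural cell markers was 154 to 162, 105 to 130 and 51.3 to 91.3 in the same order, and that of 6 cell cycle markers 190 to 266, 85.7 to 136 and 50.3 to 77.1. Sums over 6 astrocyte markers were 515 to 762, 467 to 1176 and 323 to 436, and those of the microglia, neuron and oligodendrocyte lists reached at most 28.1. The part of these shifts in the results on Wnt genes was not tested. The markers of a list differed in level. Over the 15 libraries Gja1 was at 290 to 1146, and no other astrocyte marker passed 30.3 (Aldh1l1). Aqp4 was 0 in all 15 and Gfap reached 0.182. Of the mural markers Anpep reached 101 and Pdgfrb 46.45, while Kcnj8 and Abcc9 were 0 in all 15. Among the fibroblast markers Col1a1 ranged from 24.4 to 546 and Col3a1 from 23.5 to 634. Pdgfra stayed at 43.8 to 66.8 and Fbln1 at 417 to 659. In bulk RNA, fewer cells of a type and less RNA per cell cannot be told apart.

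Fzd7 was the member with a called change in every exposed group. The FPKM of this receptor, which carries canonical signals in stem and progenitor cells, was 60.6, 63.8 and 47.8 in the 3 control libraries. At 12 h it was 12.1, 12.7 and 10.4 after 5 Gy and 13.1, 11.0 and 9.82 after 20 Gy. At 24 h it was 18.2, 15.8 and 22.6 after 5 Gy and 11.2, 12.7 and 14.8 after 20 Gy. All 12 exposed libraries lay below all 3 control libraries, with a gap between 22.6 and 47.8. Among all tested genes, 38.5% (5 Gy) and 36.8% (20 Gy) at 12 h, and 67.4% and 62.7% at 24 h, had exposed libraries that did not overlap the control libraries, in either direction. Relative to control libraries Fzd7 fell at 12 h by log2 values of -2.19 (5 Gy) and -2.24 (20 Gy), each with a standard error of 0.154, and limma gave adjusted p of 2.0e-06 and 1.6e-06. At 24 h the values were -1.56 and -2.07, with adjusted p of 2.4e-06 and 2.3e-07 from limma. Fzd7 was the only 1 of 9 tested members called in all 4 comparisons, and 2.12% of all tested genes were called lower in all 4. The 4 comparisons share the 3 control libraries, and the study itself listed Fzd7 among genes it chose on these libraries, so the pattern is no independent evidence.

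The promoters of Fzd7 and Axin2 are shown because they hold copies of a TCF/LEF core, with that of Fzd1 as a Frizzled gene that was called higher 24 h after 5 Gy. Promoter sequences of 7 of the 10 members (all but Fzd2, Fzd6 and Lrp6) were taken from RefSeq in the build GRCr8, as a window of 300 bases that ends 50 bases after the gene start. They lie at chr9:68425288-68425587 (Fzd7), chr10:94398535-94398834 (Axin2) and chr4:30264824-30265123 (Fzd1), all on the forward strand. Capitals mark each CTTTGA or CTTTGT, searched on both strands.
Fzd7: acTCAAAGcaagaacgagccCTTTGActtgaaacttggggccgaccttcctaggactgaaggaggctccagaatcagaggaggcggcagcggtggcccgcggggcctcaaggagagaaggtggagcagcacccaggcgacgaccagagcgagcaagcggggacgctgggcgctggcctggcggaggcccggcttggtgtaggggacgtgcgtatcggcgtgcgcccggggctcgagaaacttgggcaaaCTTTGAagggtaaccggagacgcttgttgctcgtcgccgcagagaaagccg
Axin2: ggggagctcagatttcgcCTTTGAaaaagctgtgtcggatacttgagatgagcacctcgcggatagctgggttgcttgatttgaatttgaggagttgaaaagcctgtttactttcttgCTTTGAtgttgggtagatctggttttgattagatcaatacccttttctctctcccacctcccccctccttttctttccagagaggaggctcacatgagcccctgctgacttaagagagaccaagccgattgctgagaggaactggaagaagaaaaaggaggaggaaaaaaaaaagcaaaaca
Fzd1: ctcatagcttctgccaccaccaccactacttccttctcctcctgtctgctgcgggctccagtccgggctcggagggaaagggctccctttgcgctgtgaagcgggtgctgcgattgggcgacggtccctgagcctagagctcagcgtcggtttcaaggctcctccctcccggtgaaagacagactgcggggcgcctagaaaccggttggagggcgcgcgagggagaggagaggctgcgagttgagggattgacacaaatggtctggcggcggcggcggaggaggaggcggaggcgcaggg
Fzd7 held 3 matches, 2 forward and 1 reverse. Axin2 held 2, both forward, and Ctnnb1 held 1. Fzd1, Fzd4, Fzd8 and Ptk7 held none in this window. Of all 33469 promoters of this length, 31.4% held at least 1 match, 7.03% at least 2 and 1.08% at least 3. A match is a description of the letters and not a binding site.

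**Figure D1:**
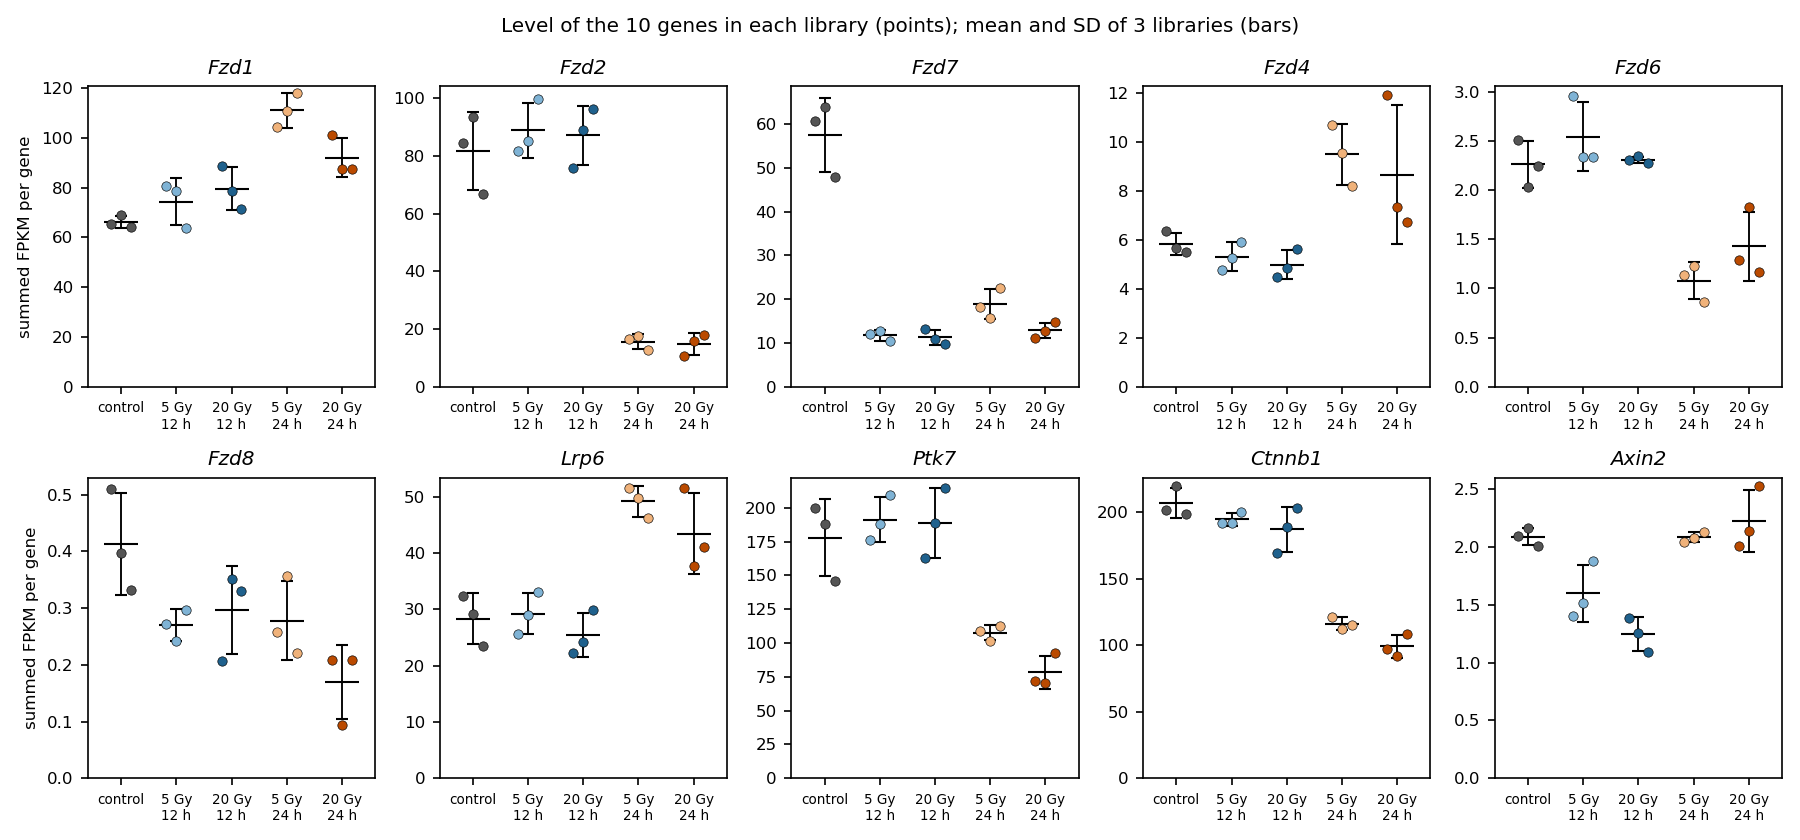
Summed FPKM of each of the 10 genes in each library (points, 3 per group), with the group mean and SD as bars; each panel has its own axis from 0. Fzd7 lay at 47.8 to 63.8 in the control libraries and at 9.82 to 22.6 in the exposed ones, while Fzd2 stayed at 66.9 to 99.8 until 12 h and was at 10.8 to 18.1 at 24 h.

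The change of Fzd7 came with a change in which of its transcripts was listed. In Rnor_6.0 the gene spans 66305243 to 66310045 of chromosome 9, forward strand, and the table holds 3 transcripts of Fzd7. The annotated one, ENSRNOT00000021569, is a single exon of 2820 bases, and the other 2, MSTRG.23882.1 and MSTRG.23882.2, were assembled by the authors with 2 exons each and 4545 and 4490 bases. The annotated transcript had an FPKM of 41.5 to 57.7 in the control libraries and of 0.0987 to 0.209 in the 12 exposed libraries. MSTRG.23882.1 went the other way, from 0 to 0.0169 in the control libraries to at most 19.2 and at least 5.50 in the exposed ones. MSTRG.23882.2 was at 6.13 to 6.37 in the control libraries and 2.53 to 4.71 in the exposed ones. None of these ranges overlapped between control and exposed libraries.

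Because the assembled transcripts are longer, FPKM falls when the same bases are assigned to them. Aligned bases were therefore also added up per gene (FPKM times length) and divided by the longest transcript of the gene, a setting chosen after the values were seen. On this scale Fzd7 was at 32.0 to 41.8 in the control libraries, 11.6 ± 1.19 and 11.2 ± 1.67 (SD, n = 3 each) at 12 h and 11.1 to 22.5 at 24 h, and control and exposed libraries did not overlap. The fall on the log2 scale was then -1.62 (5 Gy) and -1.67 (20 Gy) at 12 h, and -0.98 and -1.50 at 24 h (limma adjusted p of 1.6e-05, 1.4e-05, 9.8e-05 and 2.8e-06). All 4 calls held, with a smaller change. A change in transcript use and a change in how overlapping transcripts share reads cannot be told apart. Fzd1, Fzd2 and Fzd7 are close relatives, and reads from stretches they share could be counted to either gene.

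**Figure D2:**
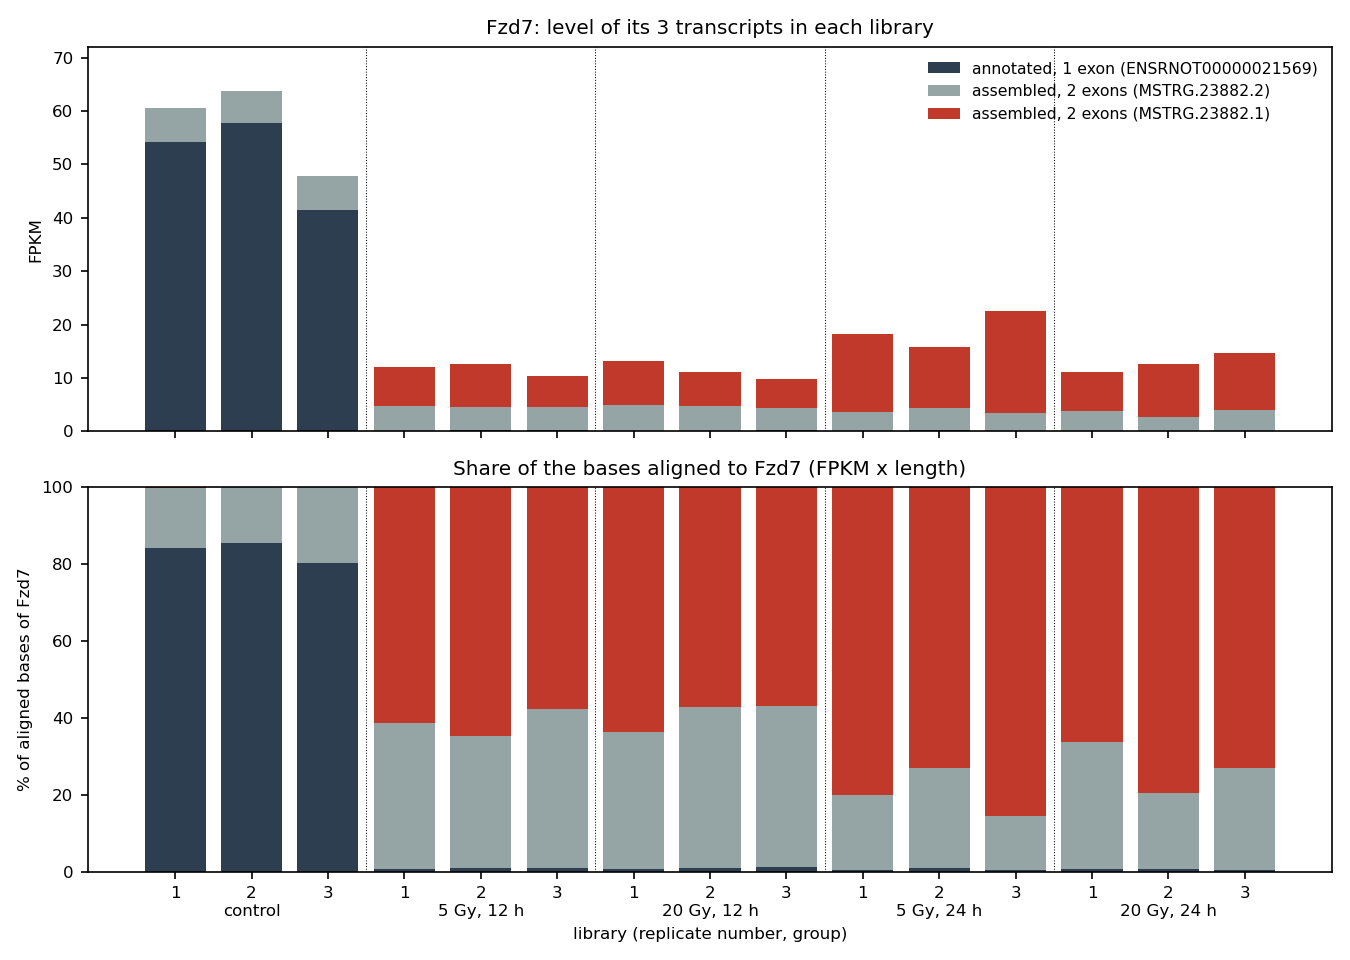
FPKM of the 3 Fzd7 transcripts, stacked, in each library (top), and their share in percent of the bases aligned to Fzd7 (bottom). The annotated transcript held 80.4% to 85.5% of the bases in the control libraries and at most 1.24% in the exposed ones.

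From 12 h to 24 h after 5 Gy, Fzd7 rose by a log2 value of 0.63 (limma adjusted p = 0.0037), with every 24 h library above every 12 h library, as in either direction for 62.8% of all tested genes (59% after 20 Gy). The call was lost without replicate 3 at 12 h (0.56), without replicate 3 at 24 h (0.50) and after quantile normalization (0.55), each under the fold limit. The annotated transcript alone gave -0.03 (limma adjusted p = 0.90). It was at 0.151 to 0.174 FPKM at 12 h and 0.0987 to 0.209 at 24 h after 5 Gy, too low to show such a rise. MSTRG.23882.1 was at 5.92 to 8.13 and 11.4 to 19.2 in the same groups. After 20 Gy the difference was 0.17 (95% interval -0.16 to 0.51, limma adjusted p = 0.36). The test of the difference between these changes gave -0.46 (95% interval -0.93 to 0.01, limma adjusted p = 0.40), so a dependence on dose was not shown. At 24 h, the Fzd7 libraries of 20 Gy lay below those of 5 Gy by 0.51 on the log2 scale (limma adjusted p = 0.083), without overlap, as in either direction for 23.2% of all tested genes.

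Fzd2, which carries both canonical and other Wnt signals, changed at 24 h. Its FPKM was 84.4, 93.6 and 66.9 in the control libraries, 81.6, 85.3 and 99.8 at 12 h after 5 Gy, and 75.9, 89.0 and 96.4 at 12 h after 20 Gy. It was 16.5, 17.6 and 12.7 at 24 h after 5 Gy and 10.8, 15.7 and 18.1 at 24 h after 20 Gy. The control and 12 h libraries overlapped, and all 24 h libraries lay below all of them. Fzd2 differed from the control group by log2 values of 0.13 (95% interval -0.27 to 0.53) and 0.10 (-0.30 to 0.50) at 12 h, and of -2.32 and -2.39 at 24 h, after 5 Gy and 20 Gy (at the later time, limma adjusted p = 3.4e-07 and 2.9e-07). The difference between 24 h and 12 h was -2.45 after 5 Gy and -2.49 after 20 Gy (limma adjusted p = 3.0e-07 and 2.6e-07).

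The locus of Fzd2, at 90550147 to 90552057 of chromosome 10 and on the forward strand, holds the annotated ENSRNOT00000032944 of 1911 bases and an assembled MSTRG.4621.1 of 1808 bases. Within each of the control and 12 h groups, MSTRG.4621.1 took from 0% of the bases of the gene in 1 library to 94.4% or more in another, while the sum stayed within the range given above. With the assembled transcript left out, the log2 fold change at 24 h was -1.03 after 5 Gy and -1.04 after 20 Gy and was not called, nor were the differences from 12 h (-1.19 and -1.17).

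Fzd1, a receptor of the same subgroup, went up. Its FPKM was 65.4, 69.1 and 64.1 in the control libraries, 80.7, 78.7 and 63.7 at 12 h after 5 Gy, and 88.6, 78.8 and 71.5 at 12 h after 20 Gy. By 24 h Fzd1 stood at 104, 111 and 118 after 5 Gy and 101, 87.4 and 87.5 after 20 Gy. All 24 h libraries of 5 Gy lay above all other libraries of the gene. The change 24 h after 5 Gy was called, at a log2 value of 0.74 (limma, standard error 0.105 and adjusted p = 5.3e-05). The change 24 h after 20 Gy was 0.47 (limma adjusted p = 0.0019), without overlap with the control libraries but under the fold limit, and it passed that limit after quantile normalization (0.67). Fzd1 has a single annotated exon of 4399 bases on chromosome 4, from 26470864 to 26475262 on the forward strand, and no assembled transcript.

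Fzd4, Fzd6 and Fzd8 were the low receptors. Fzd4, the receptor of Norrin in retinal and brain vessels, was at an FPKM of 6.37, 5.66 and 5.49 in the control libraries, 4.77 to 5.92 and 4.48 to 5.63 at 12 h, 8.22 to 10.7 at 24 h after 5 Gy and 6.74 to 11.9 at 24 h after 20 Gy. All 24 h libraries lay above all control libraries. Fzd4 rose 24 h after 5 Gy by 0.61 (limma adjusted p = 0.0073), a call that was lost after quantile normalization (0.52), without control replicate 3 (0.58) and without replicate 1 of the exposed group (0.53). Its change 24 h after 20 Gy was 0.46 (limma adjusted p = 0.032), under the fold limit, and it was 0.60 and called without replicate 3 of that group.

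Fzd6, a receptor linked to planar cell polarity, was at 2.51, 2.03 and 2.24 in the control libraries and 2.27 to 2.95 at 12 h. By 24 h Fzd6 was at 1.13, 1.23 and 0.865 after 5 Gy and 1.29, 1.82 and 1.17 after 20 Gy, below every control library. Its log2 fold change was -0.65 24 h after 5 Gy (limma adjusted p = 0.00048) and -0.43 24 h after 20 Gy (limma adjusted p = 0.0080, under the fold limit). The call at 5 Gy was lost under quantile normalization (-0.56), rescaling to TPM (-0.56), aligned bases per gene (-0.50), by the annotated transcript alone (-0.33) and without replicate 3 of the exposed group (-0.58). The value at 20 Gy was called by the annotated transcript alone (-0.70) and with a pseudocount of 0.1 (-0.65). The annotated transcript was at 0.875, 0.0194 and 1.17 FPKM in the libraries of that group. In replicate 2, where it was lowest, the assembled MSTRG.21277.1 was at 1.80 and held 98.9% of the bases. Fzd8 was at 0.333 to 0.509 in the control libraries and 0.0940 to 0.356 in the exposed libraries. Its mean FPKM of 0.286 was under the limit for testing, so it has no adjusted p.

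**Figure D3:**
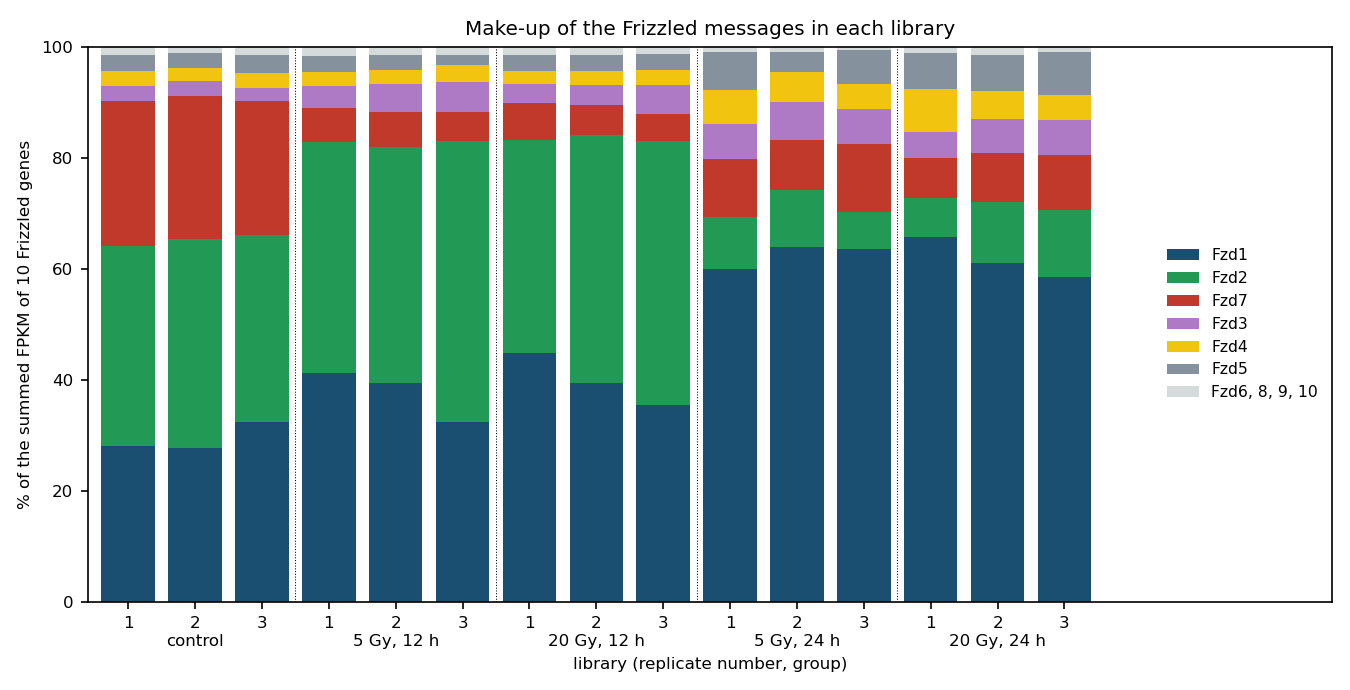
Share of each gene in the summed FPKM of the 10 Frizzled genes of the table, in percent, for each library; the last grey band holds Fzd6, Fzd8, Fzd9 and Fzd10. Fzd1 made up 27.8% to 32.3% in the control libraries and 58.5% to 65.7% at 24 h. Shares by aligned bases were not worked out.

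The FPKM of all 10 Frizzled genes of the table, members and others, was also added up. The sum was 227 ± 25.9 (SD, n = 3) FPKM in the control group, 198 ± 2.10 (5 Gy) and 199.8 ± 2.17 (20 Gy) at 12 h, and 178 ± 7.26 and 149 ± 5.44 at 24 h (n = 3 each). In two-sided exact permutation tests against the control group the sum gave p = 0.2 and 0.3 at 12 h and p = 0.1 at 24 h for each dose, where 0.1 is the smallest p for 3 libraries against 3. Fzd7 made up 25.3% of the sum in the control group, 5.93% and 5.67% at 12 h, and 10.6% and 8.67% at 24 h. Fzd2 made up 35.9%, then 45.0% and 43.6%, then 8.83% and 10.0%. Fzd1 made up 29.4%, then 37.6% and 39.9%, then 62.5% and 61.8%. At 24 h Fzd1 alone held at least 58.5% of the sum in each library. A share also moves when another gene moves. The sum and the shares also depend on the FPKM scale. Fzd7 had a mean of 57.4 FPKM in the control group but 37.9 by aligned bases per gene. At 12 h after 5 Gy these were 11.7 and 11.6. The Frizzled sum by aligned bases was not worked out.

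Lrp6, the main co-receptor of canonical signals, rose at 24 h. Its FPKM was 32.4, 29.1 and 23.6 in the control libraries, 25.7, 29.0 and 33.1 at 12 h after 5 Gy, and 22.3, 24.3 and 29.8 at 12 h after 20 Gy. By 24 h Lrp6 was at 51.5, 49.8 and 46.2 after 5 Gy and 51.5, 37.6 and 41.2 after 20 Gy. All 24 h libraries lay above all control and 12 h libraries. At 24 h Lrp6 had risen by a log2 value of 0.78 after 5 Gy (limma, standard error 0.147 and adjusted p = 0.00053) and 0.60 after 20 Gy (limma adjusted p = 0.0037). The call at 20 Gy stood close to the fold limit and was lost without control replicate 3 (0.47) and without replicate 1 of the exposed group (0.47). The annotated transcript ENSRNOT00000082102 held 85.2% to 87.9% of the bases of Lrp6 in the control and 12 h libraries and 15.2% to 87.1% at 24 h, where the assembled MSTRG.17461.3 held 10.1% to 81.8%. By the annotated transcript alone the values at 24 h were 0.44 after 5 Gy and -0.76 after 20 Gy, neither of them called.

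Ptk7, an inactive kinase that acts as a co-receptor in planar cell polarity, fell at 24 h. It was at 199.8, 188 and 146 FPKM in the control libraries, 176, 188 and 209 at 12 h after 5 Gy, and 163, 189 and 215 at 12 h after 20 Gy. By 24 h Ptk7 was at 109, 101 and 113 after 5 Gy and 71.9, 70.5 and 92.7 after 20 Gy. The 24 h libraries lay below all others, and those of 20 Gy lay below those of 5 Gy. At that time the log2 values were -0.71 after 5 Gy (limma, standard error 0.141 and adjusted p = 0.00081) and -1.17 after 20 Gy (limma adjusted p = 1.4e-05). The call at 5 Gy was lost under quantile normalization (-0.45) and rescaling to TPM (-0.56). The direct difference between the doses at 24 h was -0.46 (95% interval -0.77 to -0.16, limma adjusted p = 0.084), which missed the threshold. Without replicate 3 of the 20 Gy group it was -0.59 and called (limma adjusted p = 0.035). Ptk7 was spread over 6 transcripts, and the share of MSTRG.23507.1 ranged from 2.01% to 81.5% of its bases between libraries. By the annotated transcript ENSRNOT00000061432 alone the values at 24 h were 0.03 and -0.44, neither of them called.

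Ctnnb1 encodes beta-catenin, which also links cadherins to the cytoskeleton. Its FPKM was 202, 219.8 and 199 in the control libraries, 192, 192 and 200.4 at 12 h after 5 Gy, and 169.5, 189 and 203 at 12 h after 20 Gy. By 24 h Ctnnb1 was at 121, 112 and 115 after 5 Gy and 97.2, 92.1 and 109 after 20 Gy. The 12 h and control libraries overlapped, and the 24 h libraries lay below all of them. Ctnnb1 differed from the control group by log2 values of -0.08 (95% interval -0.26 to 0.09) and -0.15 (-0.32 to 0.03) at 12 h, and of -0.82 and -1.05 at 24 h, after 5 Gy and 20 Gy. For both later values limma gave a standard error of 0.0816, with adjusted p = 2.4e-06 and 3.3e-07. After quantile normalization the value 24 h after 5 Gy was -0.56, just under the fold limit. The annotated ENSRNOT00000079085 held 99.5% of its summed FPKM. These are message levels, and the amount of beta-catenin protein was not measured.

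Axin2, a scaffold of the destruction complex and a direct target of canonical signalling, followed a different course. Its FPKM was 2.09, 2.16 and 2.01 in the control libraries, 1.40, 1.52 and 1.88 at 12 h after 5 Gy, and 1.39, 1.26 and 1.09 at 12 h after 20 Gy. By 24 h Axin2 was at 2.04, 2.08 and 2.13 after 5 Gy and 2.01, 2.13 and 2.53 after 20 Gy. All 12 h libraries lay below all control libraries, and all 24 h libraries lay above all 12 h libraries. The difference 12 h after 20 Gy was -0.46 on the log2 scale (standard error 0.0991, limma adjusted p = 0.0072), under the fold limit. With a pseudocount of 0.1, which understates low genes less, it was -0.71 and called. The difference 12 h after 5 Gy was -0.25 (limma adjusted p = 0.097). At 24 h the differences from the control group were -0.00 (95% interval -0.22 to 0.21) and 0.06 (-0.16 to 0.27). Between 12 h and 24 h after 20 Gy the difference was 0.52 (limma adjusted p = 0.00069), again under the fold limit, and it was called with a pseudocount of 0.1 (0.79) and after quantile normalization (0.70). Axin2 is a low gene, with 29.1 to 65.6 kilobases of aligned sequence per library, compared with 1793 to 3416 for Fzd1.

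Counted over the 9 tested members, 0 were called higher and 1 lower (Fzd7) at 12 h after each dose. Of all tested genes, 9.94% were called after 5 Gy (4.98% higher and 4.96% lower) and 8.54% after 20 Gy (4.9% higher and 3.64% lower). At 24 h after 5 Gy, 3 were called higher (Fzd1, Fzd4 and Lrp6) and 5 lower (Fzd2, Fzd6, Fzd7, Ptk7 and Ctnnb1), beside 41.3% of all tested genes (20.5% higher and 20.8% lower). At 24 h after 20 Gy, 1 was called higher (Lrp6) and 4 lower (Fzd2, Fzd7, Ptk7 and Ctnnb1), beside 40.3% (17% higher and 23.3% lower). The median log2 fold change of the members was 0.05 and -0.15 at 12 h and -0.65 and -0.43 at 24 h, beside medians of 0.03, 0.01, -0.05 and -0.14 over all genes. From 12 h to 24 h, 3 members were called higher and 4 lower after 5 Gy (36.4% of all genes called, 17.1% higher and 19.3% lower), and 2 higher and 3 lower after 20 Gy (36.3%, 14.1% higher and 22.1% lower).

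Between the doses no member was called. At 12 h limma called 0 of 9, beside 0.123% of all genes called, and 0 of 9 had an unadjusted p under 0.05, beside 7.1% of all genes. At 24 h limma called 0 of 9, beside 2.42% of all genes called. At an unadjusted p under 0.05 there were 4 (Ctnnb1, Fzd1, Fzd7 and Ptk7), all lower after 20 Gy, beside 20.0% of all genes. The change from 12 h to 24 h differed between the doses for 0 members by limma's adjusted p, beside 0.553% of all genes. At an unadjusted p under 0.05 there were 2 (Fzd1 and Ptk7), beside 12.9% of all genes.

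**Figure D4:**
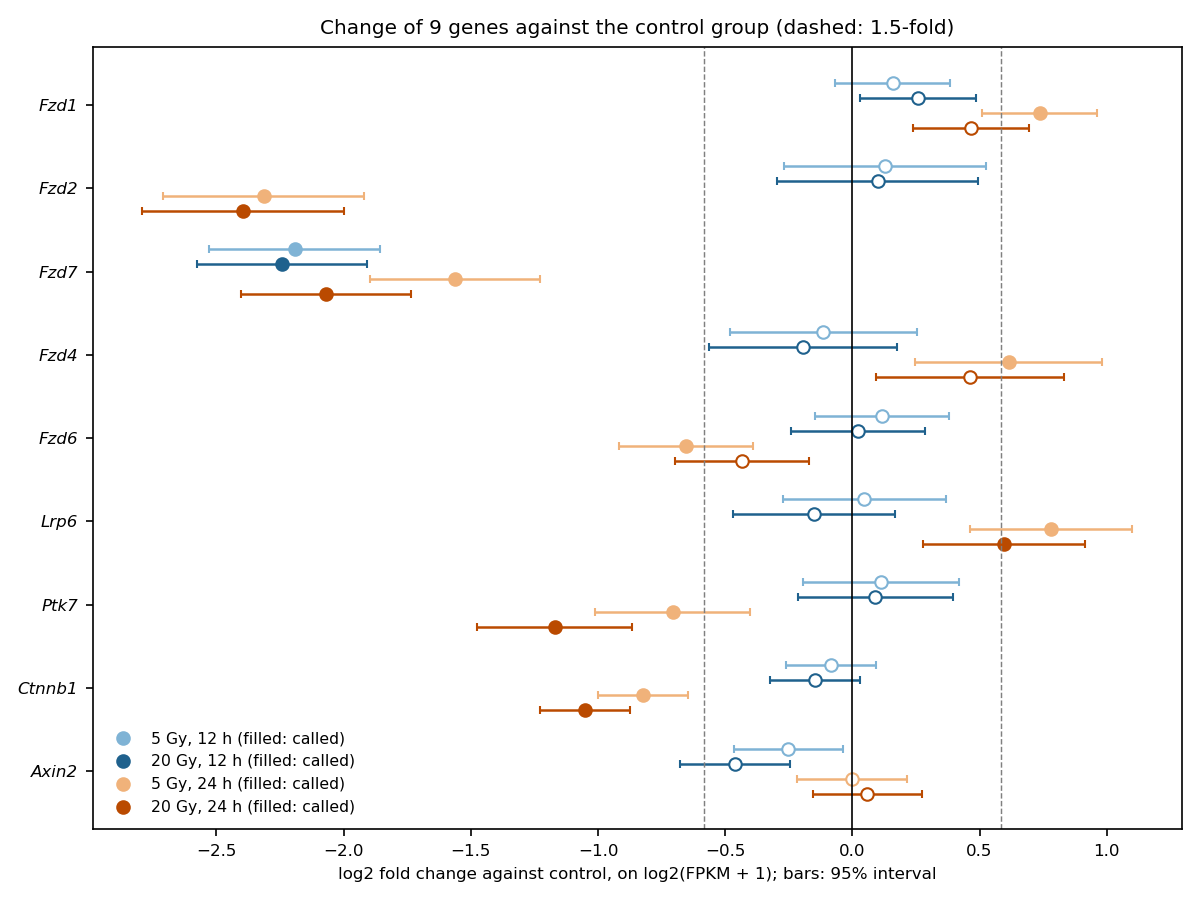
Log2 fold change of the 9 tested members against the control group, on the log2(FPKM + 1) scale, with 95% intervals; filled points are called and dashed lines mark a 1.5-fold change. Fzd7 is at -2.24 to -1.56 in all 4 exposed groups, and the other called changes are those at 24 h.

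The rest of the pathway was described from 13 lists with 112 genes that are no members, of which 75 passed the filter on low values. At 12 h, 1 of these 75 was called higher and 5 lower after each dose, beside 9.94% (5 Gy) and 8.54% (20 Gy) of all genes called. At 24 h, 22 were called higher and 13 lower after 5 Gy, and 17 higher and 13 lower after 20 Gy, beside 41.3% and 40.3% of all genes called. Their median log2 fold change was 0.15 24 h after 5 Gy and 0.01 24 h after 20 Gy, beside -0.05 and -0.14 over all genes.

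Among the ligands, 7 of 20 were tested. Wnt2, a ligand made by mesenchymal and endothelial cells, was at an FPKM of 3.99, 5.76 and 6.70 in the control libraries and of 0.298 to 3.16 in the exposed ones, without overlap. It fell in all 4 comparisons, by log2 values of -1.74 and -1.45 at 12 h and -2.02 and -1.83 at 24 h (limma adjusted p of 0.0038, 0.012, 0.00024 and 0.00053). Wnt6 fell at 24 h at both doses (-0.76 each), and Wnt16 fell at 24 h after 5 Gy (-0.89). Wnt9a rose at 24 h (1.14 and 0.71). Wnt5a, Wnt5b and Wnt2b were not called against the control group, with values between -0.54 and 0.49.

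Wls, which carries Wnt proteins to the cell surface, rose in the same 4 comparisons. Its FPKM was 88.1, 79.4 and 79.8 in the control libraries and 132 to 191 in the 12 exposed ones, without overlap. It rose by log2 values of 0.93 and 0.96 at 12 h and 0.83 and 1.02 at 24 h (limma adjusted p of 0.00028, 0.00029, 9.4e-05 and 1.8e-05). Of all tested genes, 1.48% were called higher in all 4 comparisons. Porcn, the enzyme that adds the lipid to Wnt proteins, fell at 24 h (-0.60 and -0.66).

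Of the 15 genes listed as Wnt inhibitors, most of them secreted, 9 were tested, and 4 of them fell and 1 rose at 24 h at both doses. Of all tested genes, 20.8% were called lower and 20.5% higher 24 h after 5 Gy, and 23.3% and 17% after 20 Gy. Sfrp4, which binds Wnt proteins outside the cell, was at 37.4 to 42.1 FPKM in the control libraries and at 13.5 to 21.6 in the exposed ones, and fell in all 4 comparisons (-0.91 and -1.39 at 12 h, -1.13 and -1.32 at 24 h). Sfrp1 (-1.42 and -1.62), Frzb (-1.05 and -1.59) and Dkk4 (-1.22 and -1.07) fell at 24 h, and Wif1 rose (1.04 and 0.78). The median log2 fold change of the 9 was -0.84 and -1.07 at 24 h, beside -0.05 and -0.14 over all genes.

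The co-receptors Ror1 and Ror2, receptors for Wnt5a, rose at 24 h (0.99 and 1.05 for Ror1, 1.08 at each dose for Ror2), and Lrp5, the relative of Lrp6, rose 24 h after 5 Gy (0.77). Fzd3 rose 24 h after 5 Gy (0.83). Lgr6, a receptor for R-spondins, fell at 24 h (-1.39 and -1.27), while Rspo3 rose 24 h after 20 Gy (1.14, limma adjusted p = 0.031). The Rspo3 libraries of that group were uneven, at 16.4, 9.46 and 4.30 FPKM, and overlapped the control libraries at 2.81 to 4.76. Of the 9 tested genes listed for the destruction complex, 3 rose and 0 fell at 24 h at both doses. Of all tested genes, 20.5% and 17% were called higher there, and 20.8% and 23.3% lower. The 3 were the scaffold Apc (0.87 and 0.81) and the tankyrases that mark AXIN for degradation, Tnks2 (1.26 and 1.10) and Tnks (0.85 and 0.68). Dvl1 fell 24 h after 20 Gy (-0.76).

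In the nucleus, Tcf7l2 rose at 24 h (1.60 and 1.69), as did the co-repressors Tle3 (1.27 and 1.01) and Tle4 (0.92 and 1.04). Bcl9l, a co-activator of beta-catenin, rose 24 h after 5 Gy (0.64). Tcf7 fell 12 h after 5 Gy (-0.66) and at 24 h (-0.63 and -0.92), and Tcf7l1 fell 12 h after 20 Gy (-0.70). Lef1 was under the limit for testing.

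The known target genes of canonical signalling other than Axin2 did not move as 1 group. Of 12 listed, 6 were tested. Bambi, a decoy receptor of the TGF-beta family, was at 1.41 to 1.71 FPKM in the control libraries, 0.336 to 0.782 at 12 h and 2.58 to 3.85 at 24 h, with no overlap among control, 12 h and 24 h libraries. It fell at 12 h (-0.62 and -0.77) and rose at 24 h (0.67 and 0.76; limma adjusted p of 0.0049, 0.0015, 0.00062 and 0.00023). Myc rose at 24 h (2.10 and 2.20), as did Tnfrsf19 (1.34 and 1.35). Nkd2, Notum and Ccnd1 were not called against the control group, and Nkd2 12 h after 20 Gy was at -0.58 (limma adjusted p = 0.039), close to the fold limit. These genes also answer to other pathways, and the source of their change was not tested.

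**Figure D5:**
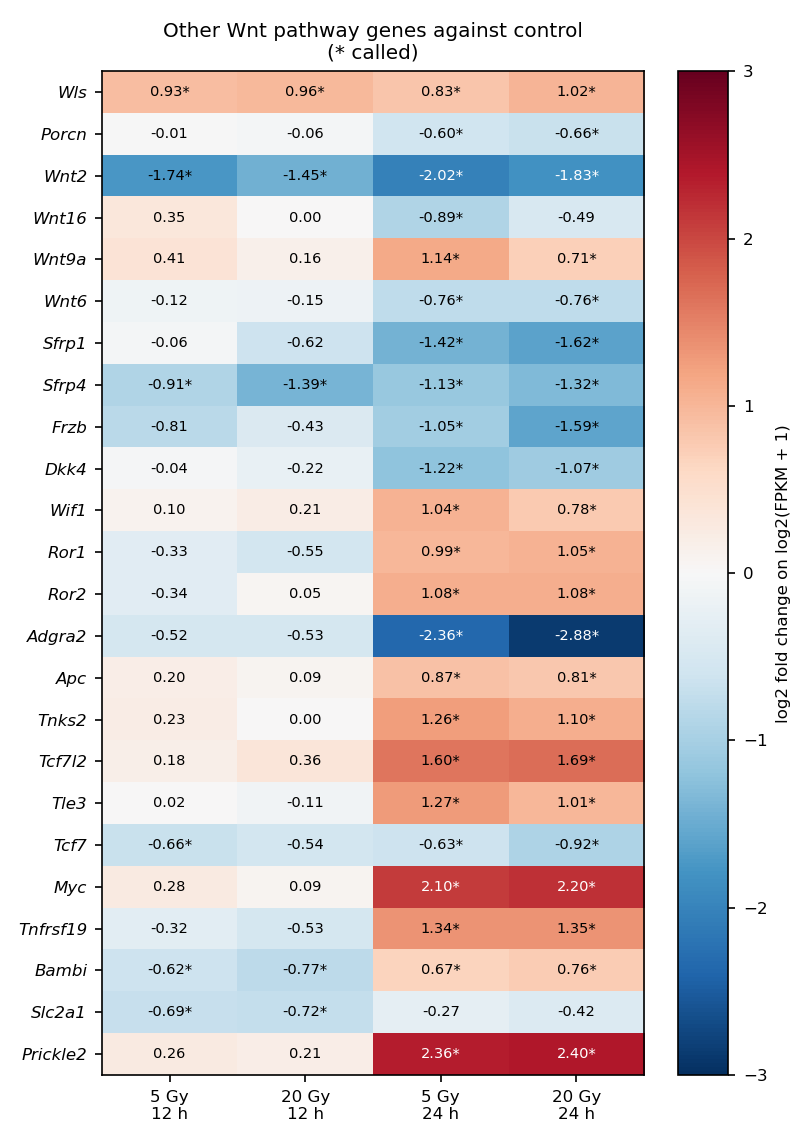
Log2 fold change against the control group, on the log2(FPKM + 1) scale, of 24 other Wnt pathway genes named in the text (rows) in the 4 exposed groups (columns); colour gives the value printed in each cell and a star marks a call. Wls is at 0.83 to 1.02 and Wnt2 at -2.02 to -1.45 in all 4 groups, while most other called changes stand in the 24 h columns.

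On the list of brain endothelial Wnt genes, 5 of 8 were tested. Adgra2 (Gpr124), which with Reck serves Wnt7 signals at brain vessels, was at 127 to 147 FPKM in the control libraries, 82.0 to 108 at 12 h and 13.5 to 35.1 at 24 h. It fell at 24 h (-2.36 and -2.88, limma adjusted p = 1.1e-06 and 2.2e-07), as did the sums of the fibroblast and mural markers given above. Reck was not called (-0.09 and -0.20 at 24 h). Tspan12, a partner of Fzd4 in Norrin signalling, rose at 24 h (0.67 and 0.61), and Slc2a1, the glucose carrier of brain vessels, fell at 12 h (-0.69 and -0.72). Plvap, which canonical signals keep low in barrier vessels, was not called. Sox17, Cldn5 and Mfsd2a were under the limit for testing.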

How the data were processed

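Poly-A RNA of 15 libraries of the cells named BMECs was sequenced in 150-base reads. The authors trimmed the reads with Trimmomatic, mapped them to Rnor_6.0 with HISAT2 2.0.13, assembled transcripts with StringTie 1.3.5 and deposited 1 table of FPKM per transcript, which are normalized values and not counts. They ran edgeR on Kallisto counts, which were not used here. Because FPKM is not a count, a count model was not run.

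FPKM was summed per gene over 85322 transcripts, and 4738 transcripts that no single gene name claimed were left out. Depth was taken from whole steps of FPKM times length on short transcripts (81.1% to 85.2% of values within 0.1 base of a step, against a median of at most 19.4% for other steps). Gene sums whose mean FPKM reached 0.5 were tested on log2(FPKM + 1) with limma 3.58.1 in R 4.3.3. The fit had 1 mean per group, a trended variance prior and 10 residual degrees of freedom, and p-values were two-sided and adjusted over 17895 genes. In simulated data for the comparison of 20 Gy at 24 h with control, 200 of 17895 genes were given a change. Of those given a log2 change of 1, 80% were called, and of those given 2, 95%, none with the wrong sign. Among the unchanged genes 5 were called. The real comparison called 40.3% of all tested genes, so these rates were not measured in a setting like it.

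The 10 members, the pathway and marker lists and the tests were chosen with earlier results of these data known. By rule, the named genes were all members, the tested ligands, feedback targets and brain endothelial Wnt genes, and per list and control comparison the largest called rise and fall. For Fzd7 and Axin2 they were also the 3 genes outside the lists most like each. Added after their values were seen were Apc, Bcl9l, Celsr1, Ctnna1, Ctnnd1, Daam1, Dkk4, Frzb, Lef1, Lrp5, Mfsd2a, Prickle1, Ror1, Sox17, Tle3, Tle4 and Tnks. Of the pathway genes, 110 of 112 were analysed here. Alternatives covered the pseudocount, filter, scaling, fit, variance prior, replicate block, way of summing, threshold and leaving out each library.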

Additional observations from a re-analysis of the deposited data

How the results depend on the processing

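Of the fold changes of single members against the control group under each alternative, 645 kept their side of the threshold, 29 lost a call and 6 gained one. Another 4 reversed, with a call in either setting. The direction of values called in neither setting was not compared. With named transcripts only, Lrp6 24 h after 20 Gy was -0.76 and Ptk7 24 h after 5 Gy 0.0257, and with the transcript of the highest mean FPKM Lrp6 24 h after 20 Gy was again -0.76 and Ptk7 24 h after 20 Gy 0.0601. The 4 calls of Fzd7 against the control group were kept in every alternative run. The number of members called 12 h after 20 Gy was 2 with a pseudocount of 0.1, beside 1833 of 17895 genes. The number 24 h after 5 Gy was 4 after quantile normalization, with named transcripts only and with the highest transcript, and 2 at a fold change of at least 2. Over all genes these settings called 7145 of 17895, 3608 of 11310, 6077 of 17670 and 3584 of 17895, in that order. The number of members 24 h after 20 Gy was 3 with named transcripts only and 3 with the highest transcript, beside 3521 of 11310 and 5945 of 17670 genes. Between 12 h and 24 h after 5 Gy the number of members was 2 with named transcripts only, 2 with the highest transcript and 1 at a fold change of at least 2. Over all genes it was 2919 of 11310, 5184 of 17670 and 2834 of 17895. After 20 Gy it was 3 members with the highest transcript and 2 at a fold change of at least 2, beside 5254 of 17670 and 2817 of 17895 genes. The change over time differed between doses for 2 members at an unadjusted p, beside 12.9% of all genes. When each library was left out in turn, the number called between the doses at 24 h was 0 to 1, and the 1 was Ptk7, without replicate 3 of 20 Gy at 24 h. Of the pathway genes, 1 (5 Gy) and 2 (20 Gy) were called at 12 h at a fold change of at least 2, beside 588 and 433 of all 17895 genes. With a pseudocount of 0.1, 10 were called at 12 h after 20 Gy, beside 1833 of 17895. At 24 h, 17 (5 Gy) and 18 (20 Gy) pathway genes were called with named transcripts only, beside 3608 and 3521 of all 11310 genes tested so. At a fold change of at least 2 the numbers were again 17 and 18, beside 3584 and 3444 of 17895. The cause of these shifts was not tested. Rescaling to TPM moved the median of all genes 24 h after 5 Gy from -0.05 to 0.06, and quantile normalization moved that 24 h after 20 Gy from -0.14 to -0.03. With the replicate number as a block (replicate block), 1, 1, 8 and 5 members were called in the 4 comparisons with the control group, the same numbers as without it. Counts of members or pathway genes are given above where an alternative changed them by more than 1.5-fold or from 0. Smaller changes of a count are not listed. Rescaling to TPM, for instance, lost the calls of Fzd6 and Ptk7 24 h after 5 Gy. The numbers did not pair the libraries: deviations of same-numbered libraries from their group means had r from -0.18 to 0.23 (median 0.01), and 4 of 15 libraries were closest to one of their own number. Fzd8 had the fewest aligned bases of the members, 2.10 to 9.48 kilobases per library.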

Other observations

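Planar cell polarity is the branch of Wnt signalling that orients cells in a sheet. Of 10 genes listed for it, 8 were tested. At 24 h after 5 Gy 4 rose and 1 fell, beside 41.3% of all genes called (median log2 fold change 0.26, beside -0.05 over all genes). At 24 h after 20 Gy 1 rose and 1 fell, beside 40.3% of all genes called (median -0.16, beside -0.14). Prickle2, a cytoplasmic part of this pathway, was at 6.42, 5.86 and 5.01 FPKM in the control libraries, and rose to 28.3, 36.9 and 36.3 after 5 Gy and 26.9, 35.6 and 42.6 after 20 Gy, by log2 values of 2.36 and 2.40 (limma adjusted p = 9.7e-08 and 8.9e-08). At 12 h it was at 7.10 and 6.79, and the differences of 0.26 and 0.21 were not called. Prickle1 (1.07), Celsr1 (0.59) and Daam1 (0.61) rose 24 h after 5 Gy. Rhoa, the small GTPase that Daam1 acts on, fell at both doses (-0.75 and -0.74). Of 4 tested cadherin and catenin genes, Jup fell 24 h after 5 Gy (-0.61) and Cdh11, a cadherin of mesenchymal cells, fell 24 h after 20 Gy (-0.82), while Ctnna1 and Ctnnd1 were not called.

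Likeness was ranked over the 15 libraries among 8839 named genes outside the member and pathway lists with a mean FPKM of at least 5. Among these, the gene whose log2 level was most like that of Fzd7 was Ung (Pearson r = 0.948), followed by Actg1 (0.940) and Paqr4 (0.936). Ung was at 10.8 FPKM in the control group, 3.83 and 4.41 at 12 h and 5.51 and 3.50 at 24 h. Those most like Axin2, among the same 8839 genes, were Ctu2 (0.916), Plpp3 (0.893) and Sod2 (0.891). Plpp3 was at 349.9 FPKM in the control group, 256 and 192 at 12 h and 490 and 489 at 24 h. These correlations describe libraries that share their groups and carry no test.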
